A study of Rattus norvegicus and Mus musculus with 18 samples.

Results

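The collagen genes of the embryonic kidney were followed across 5 tissue pools of mouse and rat. Members were all genes whose probe sets carry only 1 annotated symbol and whose symbol has the form Col, number, a, number. The mouse table held 42 such genes with 82 probe sets, and the 3 rat tables together held 26 genes with 51 probe sets. All 26 were also in the mouse table, and the whole series held 19342 genes named by 1 symbol. In mouse 11 members were fibrillar, 8 belonged to basement membranes (Col4, Col15 and Col18), 9 were FACIT collagens, which sit on the surface of fibrils, and 14 had other roles. In rat these classes had 8, 7, 3 and 8 members.

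Transcripts were measured on 18 Affymetrix arrays. Mouse kidneys at stage E12.5 gave 3 pools of about 1000 ureteric bud tips, 350 bud stalks and 300 mesenchymes. Rat kidneys at stage E13.5 gave a pool of about 1200 whole ureteric buds and a pool of about 240 mesenchymes, and each was hybridised to 3 array designs, here called A, B and C. The tissues were loosened for 10 min in trypsin and DNase before the mesenchyme was pulled away, and no strain or genotype is named in the labels. Each tissue and design has 2 arrays, which are labelings of 1 pooled RNA. The p-values therefore measure the spread of labelling and hybridisation, not the spread between animals. Precision is limited by the small number of arrays.

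Collagens are triple-helical matrix proteins. Fibrillar collagens of types I, III and V form the fibres of connective tissue and are made mainly by mesenchymal and stromal cells. Type IV collagen forms the sheet-like network of every epithelial basement membrane, where types XV and XVIII are also found. In the developing kidney the ureteric bud is an epithelial tube wrapped in a basement membrane, and it branches at its tips within the mesenchyme. Making a collagen requires hydroxylation of its chains, chaperones in the endoplasmic reticulum, removal of the end peptides and cross-linking outside the cell.

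Values are normalised intensities on a linear scale, and differences are log2(intensity + 16), on which 1 is a 2-fold difference of the shifted values. This scale understates the change of dim genes. Intensities of different genes or of different tables are not compared. A gene was tested where its mean in at least 1 tissue reached the median intensity of its table, which was 49.3 in mouse and 111, 118 and 115 in rat designs A, B and C. Of the 42 mouse members 29 were tested, and 19 of the 26 rat members were tested on at least 1 design. A dim gene can enter through its brightest tissue alone, so counts over tested members describe those members only. A gene passed the test at an adjusted p under 0.05 and a difference of at least 2-fold.

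The pools were checked by markers that hold no collagens. All 11 bud epithelium markers were higher in mouse tips than in mesenchyme, and 7 of 8 nephron progenitor markers were lower. In stalks against mesenchyme 10 of the 11 were higher and 6 of the 8 lower. The summed nephron progenitor intensity was 688 to 787 in the tip arrays, 1931 to 1982 in the stalk arrays and 6279 to 6374 in the mesenchyme arrays. The summed intensity of 7 stromal markers was 1870 to 2030 in the tip arrays, 12756 to 12783 in the stalk arrays and 15047 to 15144 in the mesenchyme arrays. Between stalk and mesenchyme 1 of the 7 was called lower and 0 higher, with a median difference of -0.52. No marker was listed at 0. In bulk tissue, fewer cells of a type and less RNA per cell cannot be told apart. In rat, 5 of 7, 1 of 1 and 2 of 3 tested bud epithelium markers were higher in the bud on designs A, B and C. The second rat bud labelling stood apart from the rest. Its Gapdh control had a 3′ to 5′ signal ratio of 4.26 to 5.28 over the 3 designs, against 1.25 to 1.47 for the other rat arrays, and its part in the rat results is given beside them.

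In mouse, several fibrillar collagens, 2 fibril-associated ones and most of the other class were lower in bud tips than in bud stalks, while no tested basement membrane collagen fell. Of the 29 tested members, 14 fell in tips relative to stalks and 0 rose. Over all 12354 tested genes, 5.33% passed in either direction, 4.18% lower and 1.16% higher in tips. By adjusted p alone 20 members passed, 19 lower and 1 higher, and 33.1% of all genes did. The 14 comprised 5 of 8 tested fibrillar genes, 2 of 6 FACIT genes, 7 of 9 others and 0 of 6 basement membrane genes. The median difference was -0.85 over the tested members and -0.26 over all 42, against 0.06 over all tested genes. All 7 stromal markers and 5 of 9 endothelial markers were lower in tips as well, and their part in the collagen differences was not tested.

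Col1a1, which with Col1a2 encodes the chains of type I collagen, gave intensities of 80.7 and 55.6 in tips, 924 and 924 in stalks and 866 and 789 in mesenchyme. Both tip arrays lay far below all other arrays, and stalk and mesenchyme were close to each other. The log2 difference of tip from stalk was -3.50 (SE 0.13, adjusted p = 2.64e-07) and that of stalk from mesenchyme 0.16 (adjusted p = 0.506). A second Col1a1 probe set gave smaller differences of tip from stalk (-2.23) and from mesenchyme (-2.15), which also passed. Col1a2 read 432 and 413 in tips, 2933 and 2922 in stalks and 2121 and 2245 in mesenchyme. Its tip arrays were again the low pair, with a tip to stalk difference of -2.75 (SE 0.05, adjusted p = 6.35e-09).

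Col3a1, whose type III chains share fibrils with type I collagen in soft tissues, read 566 and 511 in tips, 4137 and 4119.8 in stalks and 3806 and 3696 in mesenchyme. The tip values did not overlap with either other tissue, and the tip to stalk difference was -2.90 (SE 0.05, adjusted p = 6.35e-09). Col5a1 and Col5a2 encode chains of type V collagen, which starts fibril assembly. Col5a1 read 158 and 161 in tips, 1118 and 1096 in stalks and 936 and 908 in mesenchyme, a tip to stalk difference of -2.68. Its other probe sets gave smaller differences of -1.01 and -1.86, which also passed. Col5a2 read 168 and 150.2 in tips, 714 and 727 in stalks and 773 and 774 in mesenchyme, a difference of -2.07. For both genes the tips were the only low tissue of the 3.

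The remaining tested fibrillar genes did not pass the test between tip and stalk. Col2a1, the chain of cartilage type II collagen, read 401 and 493 in tips, 734 and 754 in stalks and 757 and 774 in mesenchyme. Its tip arrays were lower than all others, but the difference of -0.72 (adjusted p = 0.000343) was under 2-fold. Col11a1, a type XI chain found in the core of cartilage fibrils, differed by -0.85 between tip and stalk by its representative probe set and by -1.06, which passed, by a second. Col27a1, another fibrillar collagen of cartilage, went the other way, with 237 and 242 in tips, 195 and 199 in stalks and 153 and 149.8 in mesenchyme. All its tip arrays were above its stalk arrays, by 0.26 (adjusted p = 0.062), which did not pass.

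**Figure D1:**
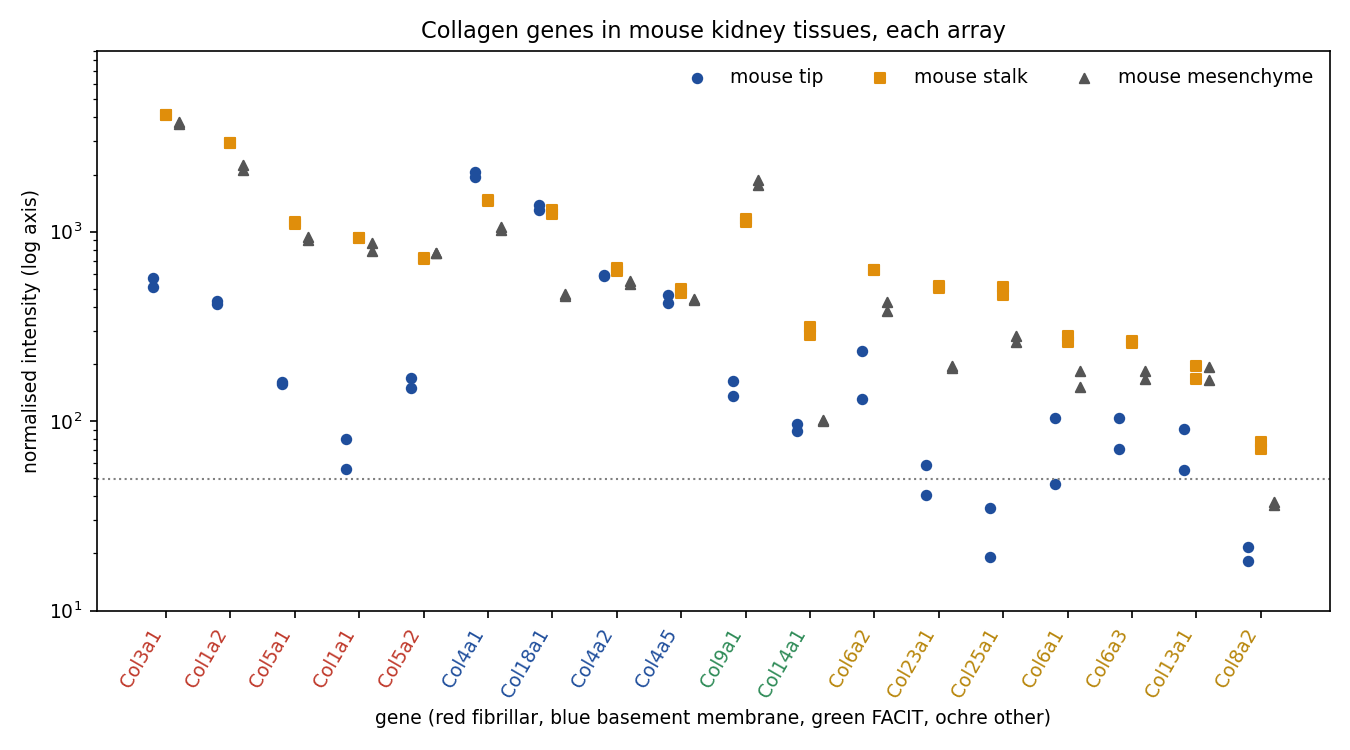
Normalised intensity (log axis) on each of the 6 mouse arrays for the 15 collagen genes that passed the test in a mouse comparison and for Col4a1, Col4a2 and Col4a5. Circles are tips, squares stalks and triangles mesenchyme, 2 arrays each, and the dotted line is the intensity of 49.3 used as the minimum. Tip circles lie below stalks and mesenchyme for the fibrillar genes, while the Col4a1 and Col18a1 circles lie above the mesenchyme triangles.

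Among the FACIT collagens, Col9a1 and Col14a1 fell in tips but differed in what the stalk did. Col9a1, which decorates type II fibrils, read 163 and 136 in tips, 1171 and 1117 in stalks and 1763 and 1882 in mesenchyme. The levels were ordered mesenchyme, stalk, tip with no overlap, and tips lay below stalks by -2.81 and below mesenchyme by -3.48 (adjusted p 6.97e-08 and 7.45e-09). A second probe set of Col9a1 gave smaller differences of -1.18 and -1.84, which also passed. Of 7 listed cartilage markers only Hapln1 reached the minimum in any mouse tissue. It read 515 and 478 in tips against 210.3 and 181 in mesenchyme, and the part of cartilage cells in the Col2a1 and Col9a1 values was not tested.

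Col14a1, which binds type I fibrils, was highest in stalks. It read 89.1 and 95.9 in tips, 286 and 313 in stalks and 102 and 99.7 in mesenchyme. Stalks were high and the other two tissues were close, with differences from stalk of -1.54 for tip (adjusted p = 1.7e-05) and, for stalk against mesenchyme, 1.44 (adjusted p = 4.05e-05). Of the FACIT genes that did not pass, Col16a1 differed between tip and stalk by -0.69, Col22a1 by 0.10 and Col9a3 by 0.00. A second tested Col9a3 probe set gave -0.75 (adjusted p = 0.0481), and 0.95 for stalk against mesenchyme (adjusted p = 0.0355), both under 2-fold. Col12a1, another partner of type I fibrils, differed by -0.82 by its representative probe set but by -2.69, which passed, by another, so its call depends on the probe set.

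The other collagens held the largest group of tip to stalk differences. The 3 tested chains of type VI collagen, which forms beaded microfibrils around cells, were all lower in tips than in stalks. Col6a1 read 104 and 46.4 in tips and 262 and 282 in stalks, Col6a2 131 and 234 against 629 and 625, and Col6a3 70.9 and 104 against 265 and 258. Their differences were -1.73, -1.75 and -1.44, with standard errors of 0.26, 0.20 and 0.15 that reflect wide gaps between the tip arrays. In mesenchyme Col6a1 read 184 and 150.4, Col6a2 382 and 424 and Col6a3 167 and 184, so all 3 genes were ordered stalk, mesenchyme, tip.

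The membrane-spanning collagens followed the same order or were low in tips alone. Col23a1 read 58.8 and 41 in tips, 518 and 504 in stalks and 191 and 195 in mesenchyme. Its tissues did not overlap, with stalk highest, and tip differed from stalk by -3.01 (SE 0.13, adjusted p = 9.11e-07). Col25a1 read 34.6 and 19.1 in tips, 507 and 463 in stalks and 281 and 261 in mesenchyme. Its tip to stalk difference of -3.57 (SE 0.17, adjusted p = 1.1e-06) rests on a tip mean below the minimum of 49.3, so its size is uncertain, and a second Col25a1 probe set gave 0.11. Col13a1 read 54.9 and 90.3 in tips, 195 and 167 in stalks and 164 and 194 in mesenchyme. Only its tips were low, and its difference of -1.18 no longer passed without the first tip array, at -0.87, or with a pseudocount of 64, at -0.85.

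Col8a2, a short-chain network collagen, read 18.2 and 21.7 in tips, 77.2 and 70.8 in stalks and 36 and 37.6 in mesenchyme. Only its stalks exceeded the minimum intensity, and tip differed from stalk by -1.33 (adjusted p = 0.000111). With a pseudocount of 64 that difference was -0.72 and no longer passed. Col26a1, a secreted protein with short collagenous stretches, differed by -0.51, and Col7a1, which forms anchoring fibrils, by 0.05. Neither passed the test.

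The comparison of tips with mesenchyme shares the tip arrays with the one above. In it 11 members fell in tips and 1 rose, of 29 tested. Over all tested genes 9.71% passed, 5.05% lower and 4.65% higher. The median was -0.56 over the tested members, -0.25 over all 42 and 0.01 over all tested genes. Those that fell were Col1a1 (-3.34), Col1a2 (-2.33), Col3a1 (-2.77), Col5a1 (-2.42), Col5a2 (-2.17), Col9a1 (-3.48), Col6a1 (-1.08), Col6a2 (-1.13), Col13a1 (-1.16), Col23a1 (-1.68) and Col25a1 (-2.77). Col6a3 at -0.91, Col8a2 at -0.56, Col2a1 at -0.76 and Col26a1 at -0.79 had adjusted p-values under the threshold without reaching 2-fold. By adjusted p alone 19 members passed, 16 lower and 3 higher, and 38.5% of all genes did. The type VI and Col13a1 calls were near the fold threshold: Col6a1 was -0.61 without the second tip array and -0.93 without the first mesenchyme array. Without the first tip array Col6a2 was -0.74 and Col13a1 -0.86. With a pseudocount of 64 Col6a1 (-0.76), Col6a2 (-0.95) and Col13a1 (-0.84) were under 2-fold, as was Col6a2 with the mean of all its probe sets (-0.86). Further probe sets of Col5a1 (-0.73), Col6a2 (-0.60), Col23a1 (-0.49) and Col25a1 (-0.04) did not pass.

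Few collagens differed by 2-fold between stalks and mesenchyme. Of 29 tested members 3 rose in stalks and 0 fell, against 2.94% of all genes higher and 0.559% lower, with 3.5% in either direction. The 3 were Col18a1, Col14a1 and Col23a1, each from a different class. Without the fold threshold 12 members passed, 10 higher and 2 lower, and 15.6% of all genes did. The fibrillar genes differed by -0.10 to 0.50 and none passed. Col1a2 was higher in both stalk arrays by 0.42 (adjusted p = 0.000375), under 2-fold, and Col9a1 was lower in both by -0.66 (adjusted p = 0.000635). The median over the tested members was 0.23, against -0.05 over all genes. The stalk pools also held ureteric mesenchyme and smooth muscle markers at a summed intensity of 4152 to 4231, above 2461 to 2479 in mesenchyme and 564 to 600.4 in tips. The sum and the single markers differed in direction: of 6 tested, 2 were higher in stalks than in mesenchyme, Tbx18 by 1.23 and Actc1 by 2.32, Des was lower at -1.08, and the median was -0.47. The part of these cells in the stalk collagen values was not tested.

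**Figure D2:**
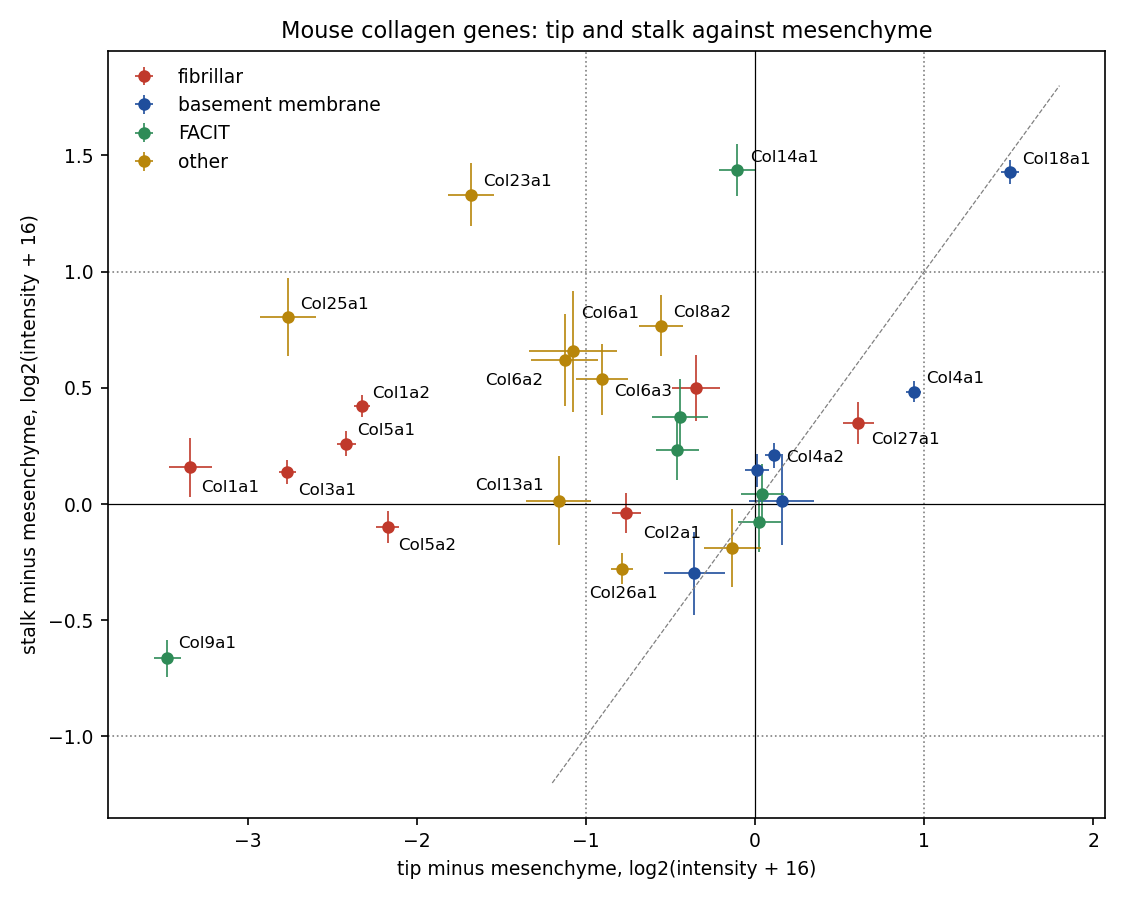
Difference of tip from mesenchyme (horizontal) and of stalk from mesenchyme (vertical), both in log2(intensity + 16), for the 29 tested mouse collagen genes, with standard errors as bars and colours for the classes. Both axes share the mesenchyme arrays, dotted lines mark 2-fold and the dashed line equal differences. Fibrillar genes such as Col1a1 (-3.34 and 0.16) reach further along the horizontal than the vertical axis, Col18a1 (1.51 and 1.43) lies near the dashed line, and Col14a1 and Col23a1 lie high.

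Basement membrane collagens were the one class in which no tested member fell in tips in mouse. Col18a1, whose C-terminal part is released as endostatin, read 1304 and 1383 in tips, 1239 and 1302 in stalks and 459 and 466 in mesenchyme. Both bud tissues were high and mesenchyme was low with no overlap. Tip exceeded mesenchyme by 1.51 (SE 0.05, adjusted p = 8.01e-08), and stalk exceeded mesenchyme by 1.43 (adjusted p = 3.92e-07). Tip and stalk differed by 0.08 (adjusted p = 0.291). A second Col18a1 probe set gave 1.48 for tip against mesenchyme, which passed.

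Col4a1, 1 of the 2 chains of the common type IV network, read 1948 and 2061 in tips, 1459 and 1457 in stalks and 1051 and 1025 in mesenchyme. The order was tip, stalk, mesenchyme with no overlap. Tip exceeded mesenchyme by 0.94 (SE 0.04, adjusted p = 5.99e-07) and stalk by 0.46 (adjusted p = 0.000109), both just short of or below 2-fold, and a second probe set gave 0.53 and 0.12. Col4a2, its partner chain, was flat by comparison, at 591 and 579.8 in tips, 618 and 639 in stalks and 531 and 551 in mesenchyme. Its largest difference was 0.21 between stalk and mesenchyme (adjusted p = 0.0379).

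The other type IV chains include those known from mature kidney and Alport syndrome. Col4a5, Col4a6 and Col15a1, which is not a type IV chain, did not pass in any mouse comparison. Col4a5 read 464 and 418 in tips, 497 and 472 in stalks and 439.6 and 434 in mesenchyme, with no difference over 0.14 in size. Col4a6 read 60.7 to 98.4 and Col15a1 70.8 to 128 over the 6 arrays. For both genes tip and mesenchyme arrays overlapped. Col15a1 differed from mesenchyme by -0.36 in tips and -0.30 in stalks. Col4a3 and Col4a4 stayed below the minimum in all 3 mouse tissues, with means of 27.4 to 35.5 and 13.9 to 14.9.

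The pair Col4a1 and Col4a2 is encoded head to head, and the stretch between the starts is shown because both genes are read from it in opposite directions. In the rat assembly GRCr8 of RefSeq the starts are 76 bases apart, at chr16:84885521-84885596, plus strand. Col18a1 is shown as the collagen that rose in the bud, with the 150 bases before its RefSeq start at chr20:11473495-11473644, plus strand. Capitals mark GGGCGG or its reverse complement, a GC box motif. CCAAT and TATAAA were also searched on both strands and neither occurred in these 2 stretches.

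between Col4a2 and Col4a1: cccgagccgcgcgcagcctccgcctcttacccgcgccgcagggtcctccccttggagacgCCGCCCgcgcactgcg
Col18a1: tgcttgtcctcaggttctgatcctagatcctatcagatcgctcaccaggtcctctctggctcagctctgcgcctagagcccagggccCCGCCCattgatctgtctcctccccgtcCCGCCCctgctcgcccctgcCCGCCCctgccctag

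The Col4a2 to Col4a1 stretch held the motif 1 time and the Col18a1 stretch 3 times. Of 33365 rat promoters in the table, 18.2% held it within 76 bases before the start and 26.1% within 150 bases. The G and C share was 78.9% for the first stretch and 65.3% for the second, against medians of 53.9% and 52.7% over all promoters of these lengths. The other type IV pairs, Col4a3 with Col4a4 and Col4a5 with Col4a6, also face each other, with 412 and 1414 bases between their starts. A match is a description of letters only.

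In rat, 5 of 6 tested fibrillar genes fell in whole buds relative to mesenchyme on design A. On design B 0 of 1 fell and on design C 1 of 5. Col18a1 was the only member that rose. These counts rest on 1 probe set per gene. With the mean of all probe sets, Col1a2 and Col3a1 also passed on design C. On design A 6 of 9 tested members fell in the bud and 0 rose, against 5.83% of all tested genes in either direction, 2.6% lower and 3.23% higher. On design B 2 of 7 fell and 0 rose, against 5.39% in either direction, 2.19% lower and 3.2% higher. On design C 2 of 9 fell and 1 rose, against 4% in either direction, 1.78% lower and 2.22% higher. By adjusted p alone 7, 6 and 5 members passed on the 3 designs, and 11.7%, 17.3% and 10.7% of all genes did. The median difference over tested members was -1.60, -0.77 and -0.48 on the 3 designs, against 0.03, 0.01 and 0.01 over all tested genes. Stromal markers were lower too on design A, where the sum of 5 was 849 to 960.4 in the bud arrays and 4144 to 4561 in mesenchyme. On design C the sum of 2 was 265 to 267 in bud and 350 to 386 in mesenchyme, with 0 called. On design B the 1 measured marker was not tested. The part of stromal cells in the collagen differences was not tested. Without the second bud labelling 6, 2 and 2 members passed on the 3 designs.

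Col5a2 was lower on both designs that measured it. On design A it read 61.6 and 66.4 in bud and 433 and 492 in mesenchyme, a difference of -2.58 (SE 0.14, adjusted p = 0.000119). On design C it read 51.8 and 60.2 against 190.3 and 192, a difference of -1.53 (adjusted p = 0.00213). Bud and mesenchyme arrays were far apart on both, but the bud lay below the minimum on both designs, so the sizes are uncertain. With the 75th percentile filter Col5a2 was no longer tested on design C. Col5a1 differed by only -0.58 on design A (335 and 309 against 489 and 486), under 2-fold.

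Col1a1 on design A read 237 and 278 in bud and 626 and 690.1 in mesenchyme. Both bud arrays were lower, by -1.30 (adjusted p = 0.00191). Its 4 probe sets all pointed down, from -0.86 to -3.59, so the size depends on the probe set. Col1a2 on design A read 167 and 208 against 761 and 833, a difference of -2.01 (adjusted p = 0.000392). On design C the brightest Col1a2 probe set read 1396 and 1122 against 1739 and 1766 and did not pass, at -0.48, while its 4 other probe sets passed at -2.10 to -3.03. Bud arrays were below mesenchyme arrays in every one of these representative measurements.

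Col3a1 on design A read 301 and 278 in bud and 1066 and 1201 in mesenchyme. The bud lay below mesenchyme by -1.91 (adjusted p = 0.000303). On design C it differed by -0.93 (244 and 211 against 445 and 446), short of 2-fold, and by -2.25 with a second probe set that passed. Col2a1 on design A read 295 and 187 in bud and 1870.2 and 1633 in mesenchyme. Bud was far below mesenchyme, by -2.81 (SE 0.22, adjusted p = 0.000442), and none of the 4 cartilage markers measured on that design reached the minimum. Col11a1 differed by -0.77 on design B and -0.20 on design C, and Col27a1 by 0.15 on design C with overlapping arrays, and none of these passed.

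For Col1a2 and Col5a2, which fell in the rat bud, the 150 bases before the RefSeq start in GRCr8 are shown. They lie at chr4:33518407-33518556 on the plus strand and chr9:55090152-55090301 on the minus strand. No capitals appear because none of the 3 motifs occurred in either stretch. The stretches rest on the annotated start alone. Bases further upstream and other start sites were not searched, so absence here does not mean that a promoter lacks the motif.

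Col1a2: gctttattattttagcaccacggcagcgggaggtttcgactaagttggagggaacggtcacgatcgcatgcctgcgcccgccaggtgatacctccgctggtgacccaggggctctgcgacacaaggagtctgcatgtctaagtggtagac
Col5a2: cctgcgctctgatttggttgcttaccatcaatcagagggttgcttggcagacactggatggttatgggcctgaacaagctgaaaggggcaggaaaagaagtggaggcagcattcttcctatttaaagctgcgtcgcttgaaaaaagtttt

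Over all rat promoters CCAAT occurred in 23.5%, GGGCGG in 26.1% and TATAAA in 8.01% of such stretches of 150 bases. Among 35 collagen promoters in the table they occurred in 8, 19 and 2. The fallen rat members differed among themselves in these 150 bases. Col8a2 held GGGCGG 5 times, and Col4a2 held it 2 times and CCAAT 1 time. Col13a1 and Col26a1 held none of the motifs. Any link of the motifs to the direction of a difference was not tested. Of the 26 rat members 20 had a promoter entry; Col12a1, Col14a1, Col1a1, Col2a1, Col3a1 and Col6a2 had none there.

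Among the other rat collagens, Col13a1 on design C read 49.5 and 58.2 in bud and 259.7 and 279.8 in mesenchyme, and bud minus mesenchyme was -2.03 (adjusted p = 0.00111). Col26a1 on design A read 242 and 324 against 845 and 925, a difference of -1.60 (adjusted p = 0.00166). Col8a2 on design B read 24.3 and 27 against 154 and 134, a difference of -1.94 (adjusted p = 0.0009). Bud arrays were below mesenchyme arrays for all 3, and for Col8a2 and Col13a1 the bud lay below the minimum. Col6a1 and Col6a2 on design B differed by -0.29 and -0.45, Col8a1 on design A by -0.14, and Col9a1 by -0.32 on design A and -0.74 on design B, and none passed.

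Rat basement membrane collagens were split. Col18a1 on design C read 1114 and 1465 in bud and 566 and 609.6 in mesenchyme. Both bud arrays were above both mesenchyme arrays, by 1.10 (SE 0.16, adjusted p = 0.0167). Without the second bud labelling, the one with the high Gapdh ratio, the difference was 0.90 and no longer 2-fold, and without either mesenchyme array Col18a1 (1.05 and 1.16) and Col5a2 (-1.54 and -1.52) kept their size but not their adjusted p on design C, leaving 1 member called with fewer arrays.

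Col4a2 on design B read 556 and 784 in bud and 1630.0 and 1700.4 in mesenchyme, a difference of -1.31 (SE 0.18, adjusted p = 0.0064). Col4a1 read 828 and 628 against 1599.7 and 1253 on design B and 523 and 511 against 897 and 897 on design C. Both chains were lower in the bud on every array, but the Col4a1 differences of -0.96 (adjusted p = 0.0219) and -0.78 (adjusted p = 0.0125) were under 2-fold. A second tested Col4a1 probe set on design C gave -0.22. Col4a3 on design C differed by -0.12. Endothelial cells also make type IV collagen, and the summed intensity of 5 endothelial markers on design B was 375 to 410.3 in bud and 678 to 681 in mesenchyme. In mouse the sum of 9 such markers was 856 to 876 in tips, 1937 to 2012 in stalks and 3031 in both mesenchyme arrays. Their part in the type IV values of either species was not tested.

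**Figure D3:**
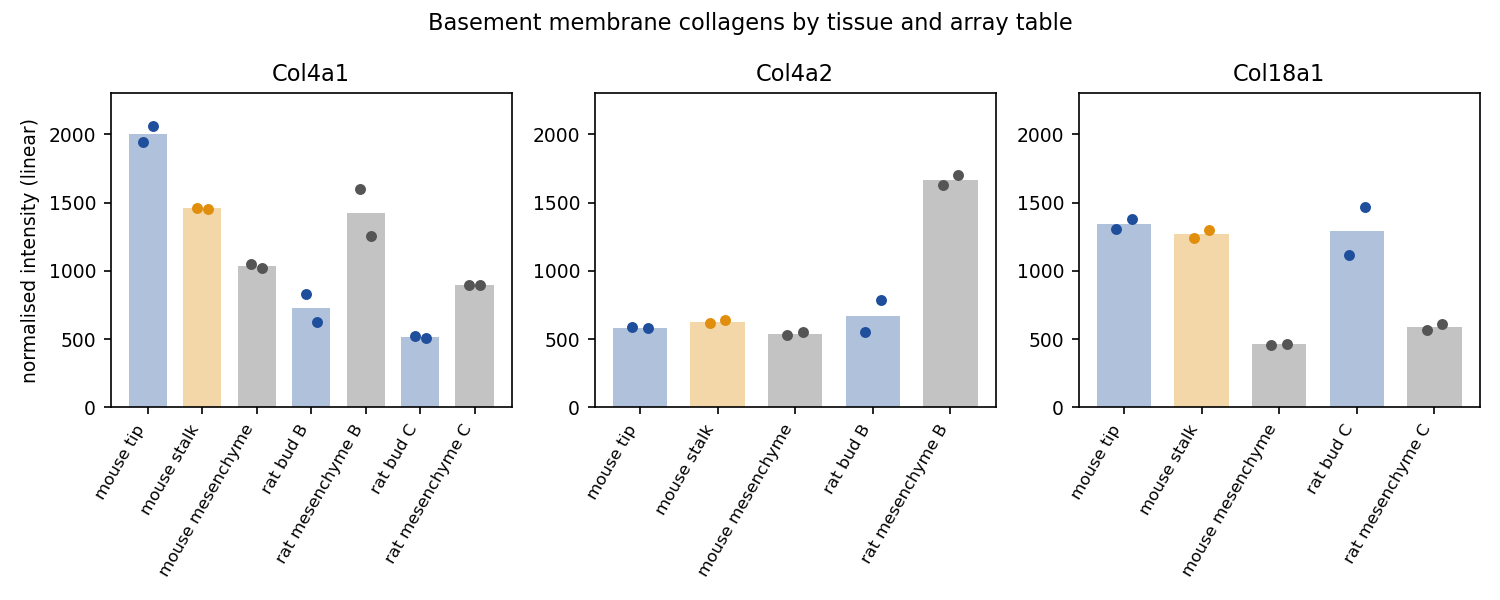
Normalised intensity (linear axis from 0) of Col4a1, Col4a2 and Col18a1 in each tissue and table, with bars for the mean of 2 arrays and points for each array. Bars are compared only within mouse or within 1 rat design (B or C). Col18a1 is higher in bud tissue than in mesenchyme in both species, and Col4a1 is higher in mouse bud tissue and lower in rat bud.

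To set mouse beside rat, tip and stalk were averaged with equal weight into a mouse bud value, which used the same mesenchyme arrays as above. Of 29 tested mouse members 5 fell and 1 rose in this mean, against 5.76% of all genes in either direction, 2.18% lower and 3.59% higher. By adjusted p alone 15 members passed, 5 higher and 10 lower, and 29.1% of all genes did. Those that fell were Col1a1 (-1.59), Col3a1 (-1.31), Col5a1 (-1.08), Col5a2 (-1.14) and Col9a1 (-2.07), and Col18a1 rose by 1.47. The Col5a1 call was lost with a pseudocount of 64 (-0.95) and with the mean of all probe sets (-0.71), and its 2 other probe sets, at -0.23 and -0.83, did not pass. For Col1a1, Col3a1 and Col5a1 the mean joined low tips with stalks at or above mesenchyme, so the bud arrays overlapped with mesenchyme. The species were measured on separate tables and at different stages, and whole rat buds were not divided, so the values stand side by side and their difference was not tested.

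In both species together 17 genes were tested, in 23 pairs of a mouse value and a rat design. The difference was below 0 in both species in 15 pairs and had opposite signs in 6, by sign alone. Mouse values recur across rat designs and the same count was not made over all genes, so it is not read as a trait of collagens. Col18a1 was above 0 in both, at 1.47 in mouse and 1.10 in rat. Col2a1 was -0.40 in mouse and -2.81 in rat, and Col9a1 was -2.07 in mouse and -0.32 and -0.74 in rat. The opposite pairs were Col4a1 on 2 rat designs, Col4a2, Col8a2 and Col11a1 on 2 designs. For Col8a2 and Col11a1 the mouse bud and mesenchyme arrays overlapped (adjusted p = 0.600 and 0.756), so the mouse sign is uncertain. Col8a2 was 0.11 in mouse, where stalks were high and tips low, and -1.94 in rat. Col4a1 was 0.71 in mouse with all 4 bud arrays above mesenchyme, and it was below mesenchyme on both rat designs. Col4a2 was 0.16 in mouse and -1.31 in rat.

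**Figure D4:**
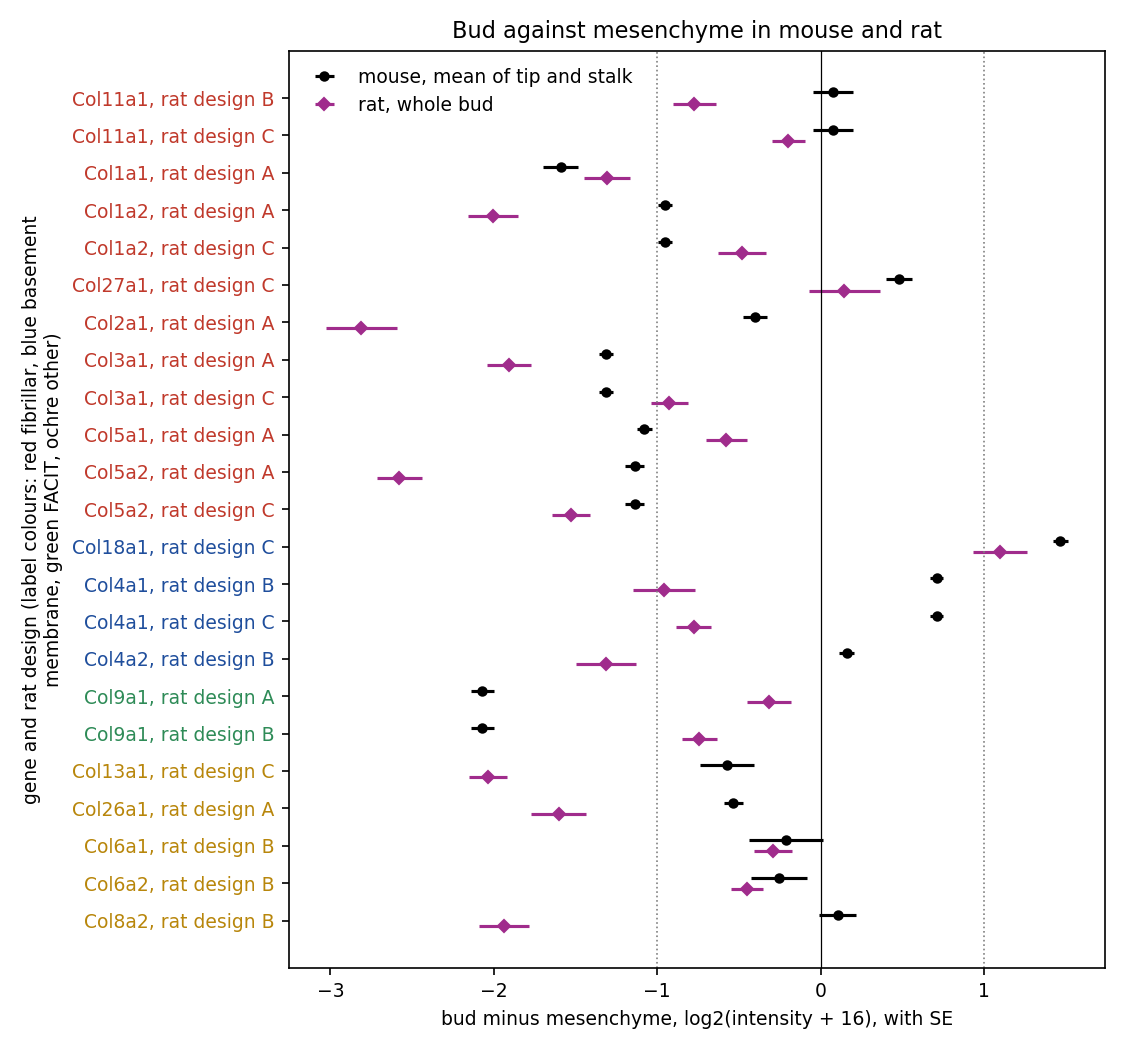
Bud minus mesenchyme in log2(intensity + 16), with standard errors, for the 23 pairs of a mouse value (circles, mean of tip and stalk) and a rat design (diamonds). A mouse value is repeated where several rat designs measured the gene, and dotted lines mark 2-fold. Most points lie left of 0, Col18a1 lies right of 0 in both species, and Col4a1 and Col4a2 lie on opposite sides.

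Genes that make, process, cross-link and bind collagen were followed from a list of 52, of which 47 were measured and 37 tested in mouse. Between tip and stalk 13 of 37 fell in tips and 0 rose, beside 5.33% of all genes. The median was -0.57, against 0.06 over all genes. Against mesenchyme 12 fell in tips and 0 rose, beside 9.71% of all genes. Between stalk and mesenchyme 1 rose and 0 fell, near the 3.5% of all genes. In the mean of tip and stalk 3 fell, beside 5.76% of all genes, Pcolce (-1.17), Ddr2 (-1.32) and the chaperone Fkbp7 (-1.08).

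Pcolce, which enhances cleavage of the C-terminal end peptide of fibrillar collagens, read 198 and 181 in tips, 1353 and 1377 in stalks and 1226 and 1137 in mesenchyme. Its tips were low and the other two tissues close, as for Col1a1, with a tip to stalk difference of -2.75 (adjusted p = 2e-08). Bmp1, the protease it assists, did not pass, at -0.10. Lox, a cross-linking enzyme, differed by -1.68 and its relative Loxl1 by -0.09. Of the hydroxylases, P4ha2 (-1.23), P3h1 (-1.17) and P3h3 (-1.16) fell in tips, the lysyl hydroxylase Plod2 differed by 0.14, and 3 of 14 tested members of that class passed in all.

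Among chaperones, the prolyl isomerases Fkbp7 (-1.75) and Fkbp14 (-1.43) and the matrix protein Sparc (-1.07) fell in tips, and the collagen chaperone Serpinh1 differed by -0.57, under 2-fold. Of the receptors Ddr2, a kinase that binds fibrillar collagen, read 28.9 and 19.7 in tips, 197 and 203 in stalks and 222 and 209 in mesenchyme, a tip to stalk difference of -2.43 with tips below the minimum. Ddr1, the receptor typical of epithelia, read 1675 and 1516 in tips and 1693 and 1576 in stalks and differed by -0.04. The endocytic receptor Mrc2 fell by 1.01. Of 5 tested fibril-binding proteoglycans 3 fell in tips, Lum (-3.22), Dcn (-2.37) and Bgn (-1.59). Lum read 36.1 and 31.7 in tips, 452 and 446 in stalks and 183 and 166 in mesenchyme, with tips again below the minimum, and it was the only listed gene that rose in stalks over mesenchyme, by 1.29.

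In rat the numbers that passed were too small to set apart from the shares over all genes. On design A 1 of 15 tested fell in the bud, beside 5.83% of all genes in either direction. It was Pcolce, at 235 and 251 against 549 and 577 (-1.16). On design B 0 of 10 passed the limma test, beside 5.39% of all genes. On design C 1 of 12 fell, beside 4% of all genes, Sparc at 195 and 207 against 407 and 487 (-1.09). At an unadjusted p under 0.05, 7 were lower and 1 higher on design A, 4 and 0 on design B and 3 and 1 on design C, where 24.5%, 32.8% and 29.4% of all genes passed. Sparc on design A differed by -0.35 and did not pass, and Serpinh1 on design A differed by -0.93 (adjusted p = 0.0138), under 2-fold.

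**Figure D5:**
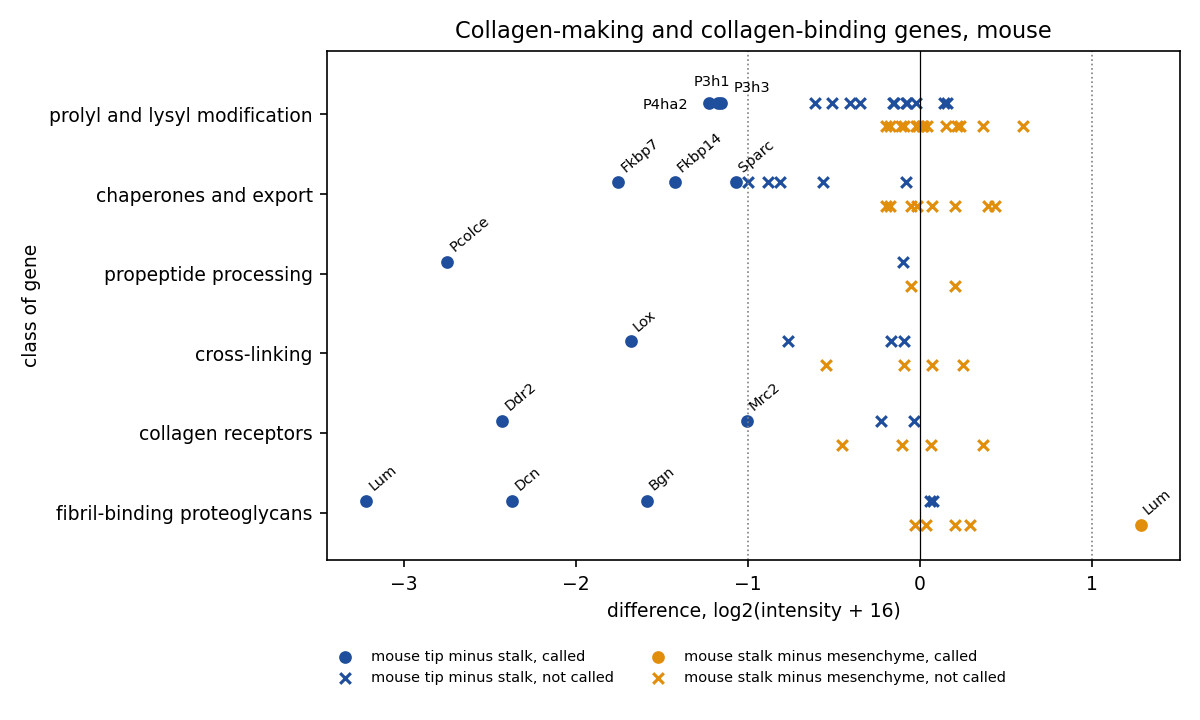
Differences in log2(intensity + 16) of the tested collagen-making and collagen-binding genes in mouse, by class, for tip minus stalk (blue) and stalk minus mesenchyme (orange). Filled circles passed the test and crosses did not, dotted lines mark 2-fold, and passing genes are named. The 13 passing blue points all lie left of -1, and the only passing orange point is Lum at 1.29.

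In mouse 13 members stayed below the minimum in every tissue and were not tested: Col10a1, Col11a2, Col17a1, Col19a1, Col20a1, Col24a1, Col4a3, Col4a4, Col5a3, Col6a4, Col6a5, Col8a1 and Col9a2. Their tissue means were 7.47 to 47.3. In rat 7 members were not tested on any design: Col4a4, Col4a5, Col7a1, Col10a1, Col12a1, Col14a1 and Col15a1. Col8a1 and Col4a3 were tested in rat only. Whether such values exceed background was not tested.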

How the data were processed

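The authors deposited 4 tables of linear intensity, 1 value per probe set and array; how they were scaled and summarised is not stated in the labels or file headers. Per the labels' descriptions, 1 ug of pooled RNA was labelled 2 times for each tissue. Here, each table was quantile normalised on its own and log2(intensity + 16) was fitted with limma 3.58.1 in R 4.3.3 (lmFit, eBayes with intensity trend), all 6 mouse arrays in 1 fit and each rat design alone. Benjamini-Hochberg adjustment ran over all tested probe sets, 23919 in mouse and 4616, 4657 and 4648 in rat, and every adjusted p is from these fits. Control probe sets were left out. A gene was represented by its single-symbol probe set with the highest mean log2 intensity, named from the platform annotation. All tested members were named. With 2 arrays against 2 an exact two-sided permutation test cannot go below 0.333. The fit was tested on simulated data. The members and gene lists were chosen with earlier results of these data known. Alternatives covered pseudocount, normalisation, filter, probe sets, variance prior, fold threshold, replicate number and each array left out.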

Additional observations from a re-analysis of the deposited data

Results flagged for a closer look

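The mouse bud mean and the rat bud differed in direction from mesenchyme for both chains of the common type IV collagen. Col4a1 was 0.71 in mouse, with all bud arrays above mesenchyme, and -0.96 on rat design B and -0.78 on design C, with all bud arrays below. Col4a2 was 0.16 in mouse and -1.31 on rat design B, again with no overlap on either side. Of these values only that of Col4a2 on rat design B passed the test. A second tested Col4a1 probe set on rat design C gave -0.22. How many of all genes show such opposite directions without overlap was not counted. The difference between the species was not tested.

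Tip and stalk differed in opposite directions from mesenchyme for 5 collagens in mouse. Each had both adjusted p-values under 0.05 and passed the test between tip and stalk. By adjusted p alone 38.5% of all genes passed for tip against mesenchyme and 15.6% for stalk against mesenchyme. The count of opposite directions was not made over all genes, so it is not read as a trait of collagens. The 5 genes were chosen for this, and the tip to stalk value is the difference of the other values, so it is no separate support. Col1a2 was -2.33 in tip and 0.42 in stalk (tip against stalk -2.75), Col5a1 -2.42 and 0.26 (-2.68), Col23a1 -1.68 and 1.33 (-3.01), Col25a1 -2.77 and 0.80 (-3.57) and Col8a2 -0.56 and 0.77 (-1.33). For Col8a2 the tip and mesenchyme means, 19.9 and 36.8, both lay below the minimum intensity, so its fall in tips is uncertain. The Col25a1 tip mean of 26.85 also lay below that minimum, so the size of its fall is uncertain. A second Col25a1 probe set gave -0.04 in tip and -0.15 in stalk against mesenchyme, which were not opposite and did not pass. Groups of 2 arrays were too small to test for a single deviating array.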

How the results depend on the processing

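The number of members called stayed within 1.5 times the reported one under most alternatives. Without the fold threshold it was 19 for tip against mesenchyme, 12 for stalk against mesenchyme, 15 for the bud mean, 6 on rat design B and 5 on rat design C. The 75th percentile filter left 1 on rat design B, where Col8a2 was no longer tested, and the mean of all probe sets gave 5 on design C. With 1 array left out, counts were 13 to 15 for tip against stalk, 10 to 12 for tip against mesenchyme, 3 in each case for stalk against mesenchyme, 6 to 7 for the bud mean, 6 in each case, 2 to 3 and 1 to 4 on rat designs A, B and C; the lone array was assumed to vary like the others. With the replicate number as a block all 7 counts were unchanged (14, 12, 3, 6, 6, 2 and 3); same-numbered arrays deviated together at r = 0.22 to 0.57 over probe sets, and the labels do not say that numbers pair arrays. Of 2156 single-gene values under alternatives, 48 became called, 18 were no longer called and 0 called values changed sign; 32 uncalled values did, none above 0.21 in size. Dim members are limited by signal over background.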
